A study of Mus musculus with 4 samples.

Results

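The AP-1 and EGR immediate early factors are a set of 10 genes, Fos, Fosb, Fosl2, Jun, Junb, Jund, Egr1, Egr3, Atf3 and Ier2, chosen by name from the 48709 genes of a lung expression table. All 10 symbols were found in the table, each on a single gene identifier, and 9 of them passed the filter on low values. RNA came from the left lung lobe of untreated C57BL/6 mice at postnatal day 1. There were 2 RykSL/SL lungs, which carry the SL allele of Ryk in homozygous form and are called mutant, and 2 wild-type lungs, each from a separate mouse. The labels give no sex or litter. They abbreviate the mutant lungs as KO and do not otherwise describe the effect of the SL allele on Ryk, a single-pass receptor for WNT ligands. The comparison asks how these transcripts differ between the genotypes in the newborn lung, and it was read lung by lung.

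Immediate early genes are transcribed within minutes of a stimulus, without new protein synthesis, and most of their RNAs are short-lived. The FOS proteins (Fos, Fosb, Fosl2 and Fosl1) bind DNA as pairs with a JUN protein (Jun, Junb or Jund), and the pair is called AP-1. Atf3 encodes a related leucine zipper protein that also pairs with JUN proteins and is induced by many stresses. Egr1 and Egr3 encode zinc finger factors that bind GC-rich sites, and Ier2 encodes a small nuclear protein induced together with them. In lung, as in other tissues, growth factors, stretch, injury and tissue handling are known inducers of these genes.

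The values are normalized read counts that summed to between 18658239 and 19987634 per lung. Ryk itself was at 2757 and 2203 in mutant replicates 1 and 2 and at 2528 and 2525 in wild-type replicates 1 and 2, so its transcript level did not separate the genotypes. Mutant replicate 1 stood apart in sex-linked RNA, with 24836 of Xist where the other lungs had 7 to 23, and with 56 of the Y-linked gene Ddx3y where they had 2197 to 3769. By these RNAs mutant replicate 1 was female and the other lungs were male. The mutant pair was thus mixed in sex and the wild-type pair was not. The log2 difference between the mutant lungs had an SD of 0.600 over the tested genes, against 0.314 between the wild-type lungs. Lung markers were high in all lungs: the alveolar type 2 genes Sftpc, Sftpb, Sftpa1, Abca3 and Lamp3 summed to between 187992 and 286831. Brown fat markers, which dissection could carry along, summed to 4 to 11.

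Jun and Fosl2 rose in the mutant, and they were the 2 of the 9 tested members that passed the test between genotypes. Over all 18436 genes tested, 2.39% passed in either direction and 1.47% passed as higher in the mutant. Fos, Atf3 and Junb were higher in both mutant lungs without passing. The median log2 difference of the tested members was 0.68, against -0.02 over all genes tested. Taken lung by lung it was 0.39 for mutant replicate 1 and 1.06 for mutant replicate 2, where the all-gene medians were 0.00 and -0.02. Both mutant lungs lay above both wild-type lungs in 7 of the 9, an order found in 25.7% of all genes tested. None of the 9 had both mutant lungs below both wild-type lungs (26.9% of all genes tested), and the genotypes overlapped in Egr1 and Fosb. Heart muscle markers moved with the genotype, with 6 of 7 tested genes lower in both mutant lungs and sums of 4116 and 3536 in the mutant against 7069 and 7097, as did lymphocyte markers (111 and 89 against 321 and 288); their part in the result was not tested. In bulk tissue, more cells of a type and more RNA per cell cannot be told apart. The test was limma on log2(value + 1) with Benjamini-Hochberg adjustment over all genes tested. No member passed without mutant replicate 2, without either of the wild-type replicates, without the mean-variance trend or with no filter on low values, and 5 passed without mutant replicate 1 (Fos, Fosl2, Jun, Atf3 and Junb), where 12.9% of all genes passed in either direction, 6.50% as higher and 6.43% as lower. Where no member passed, the absence was not particular to the members. With no filter on low values, 0 genes in all passed, and without the trend 46 passed as higher and 26 as lower over all genes. Each fit without a lung leaves 1 lung in a genotype, so it cannot decide whether a member passes. In the reported fit with all lungs, 5 members had an unadjusted p under 0.05, as did 20.1% of all genes tested.

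**Figure D1:**
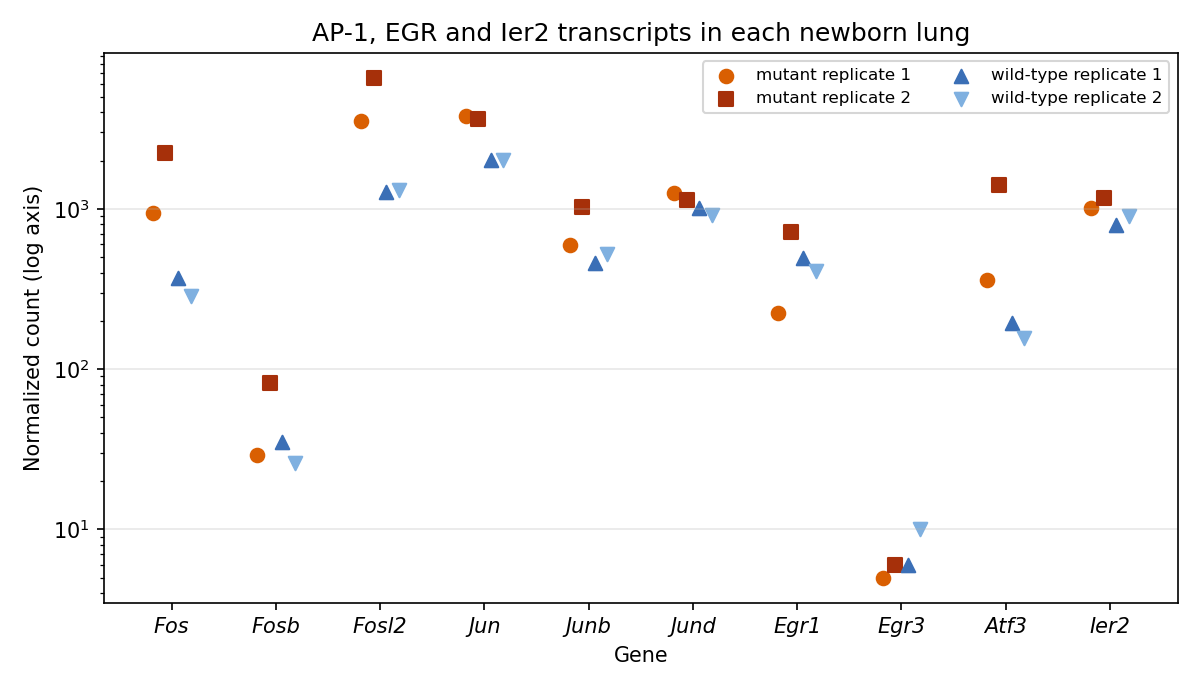
Normalized counts of the 10 genes (log axis) in each of the 4 lungs, with circles and squares for mutant replicates 1 and 2 and triangles for wild-type replicates 1 and 2. The mutant points lie above the wild-type points in Fos, Fosl2, Jun, Junb, Jund, Atf3 and Ier2, and mutant replicate 1 is the lowest lung for Egr1.

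Jun, the central AP-1 subunit, was the member whose mutant lungs were most alike. Jun (ENSMUSG00000052684, chromosome 4, positions 95049034 to 95052222, GRCm38) had normalized counts of 3765 and 3649 in the mutant pair and of 2002 and 2008 in the wild-type pair, replicate 1 first in each pair here and below. The groups did not overlap, and within each genotype the lungs were nearly equal. The log2 difference was 0.89 with a standard error of 0.13 (adjusted p = 0.0333 in limma). Mutant replicate 1 stood 0.91 above the wild-type mean on the log2 scale and mutant replicate 2 stood 0.86 above it. Exons of the antisense gene Junos overlap Jun, and no source used here states whether the counting used strand, so a part of these reads could belong to Junos.

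Fosl2 encodes Fra-2, a FOS protein that lacks the strong activation domain of Fos. Fosl2 (ENSMUSG00000029135, chromosome 5, positions 32135801 to 32157842) had 3545 and 6546 in the mutant pair and 1281 and 1310 in the wild-type pair. Both mutant lungs were far above the wild type, and mutant replicate 2 was the higher of the pair. The log2 difference was 1.89 with a standard error of 0.29 (adjusted p = 0.0347 in limma), made up of 1.45 in mutant replicate 1 and 2.34 in mutant replicate 2.

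Fos (ENSMUSG00000021250, chromosome 12, positions 85473890 to 85477273), the prototype immediate early gene, had the largest log2 difference of the tested members, but its lungs were more scattered. Normalized counts of Fos were 944 and 2244 in the mutant pair and 372 and 284 in the wild-type pair. The genotypes did not overlap, and the mutant lungs differed from each other by 1.25 on the log2 scale. The log2 difference was 2.16 with a standard error of 0.40 and just missed the threshold (limma, adjusted p = 0.0577).

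Atf3, the stress-induced partner of JUN proteins, showed the same order with a wider gap between the mutant lungs. Atf3 (ENSMUSG00000026628, chromosome 1, positions 191170296 to 191218039) had 357 and 1409 in the mutant pair and 193 and 157 in the wild-type pair. Mutant replicate 1 was modestly above the wild type and mutant replicate 2 far above it, at 1.03 and 3.01 over the wild-type mean on the log2 scale. With this spread the log2 difference of 2.02 had a standard error of 0.59 and did not pass (limma, adjusted p = 0.149).

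Promoters of 7 members were in the RefSeq table (GRCm38.p6), each from 250 bases before to 50 after an annotated start. The sequences below are the 150 bases before the start for Jun, which rose by similar amounts in both mutant lungs, and for Fos and Atf3, which were far higher in mutant replicate 2. Capitals mark TGACG on either strand, the core of the cyclic AMP response element, and TGACATCA on either strand, the variant AP-1 site known from the Jun promoter.
Jun (chr4:95052223-95052372, minus strand): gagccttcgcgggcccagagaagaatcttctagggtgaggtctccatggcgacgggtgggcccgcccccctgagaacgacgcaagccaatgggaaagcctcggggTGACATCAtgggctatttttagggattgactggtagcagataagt
Fos (chr12:85473740-85473889, plus strand): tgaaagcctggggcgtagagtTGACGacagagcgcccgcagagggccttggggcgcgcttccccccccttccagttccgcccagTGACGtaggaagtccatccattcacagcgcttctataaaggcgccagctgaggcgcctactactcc
Atf3 (chr1:191183334-191183483, minus strand): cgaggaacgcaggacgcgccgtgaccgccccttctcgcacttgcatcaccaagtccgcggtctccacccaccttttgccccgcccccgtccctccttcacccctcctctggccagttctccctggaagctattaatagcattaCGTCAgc

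TGACG lay in the promoter windows of 4 of the 7 members, Fos, Fosb, Junb and Atf3, and in 20.8% of all 32851 promoters in the table. In Fos it began 129 and 66 bases before the start, in Fosb 60, in Junb 106 and in Atf3 7 bases before the RefSeq start, which lies inside the span of the gene given above. The TGACATCA of Jun began 45 bases before the start, and these letters were found in 3.62% of all promoters and in no other member window. The windows of Jund and of Fosl2, which was also higher in mutant replicate 2, held neither TGACG nor TGACATCA. The full palindrome TGACGTCA (1.79% of all promoters), the consensus TGANTCA (7.81%) and the CArG box bound by serum response factor (1.63%) were in none of the 7 windows. Bases farther than 250 before the start were not searched, and Egr1, Egr3 and Ier2 had no window. All motifs were searched on both strands, TGACG is contained in TGACGTCA, and a match describes the letters only.

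Junb (ENSMUSG00000052837, chromosome 8, positions 84974484 to 84978718), a JUN protein that often opposes Jun, was at 595 and 1022 in the mutant pair and at 456 and 522 in the wild-type pair. Mutant replicate 1 lay close to the wild-type lungs, and mutant replicate 2 accounted for most of the log2 difference of 0.68 (standard error 0.27, limma, adjusted p = 0.237). Exons of Prdx2 overlap Junb on the opposite strand.

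**Figure D2:**
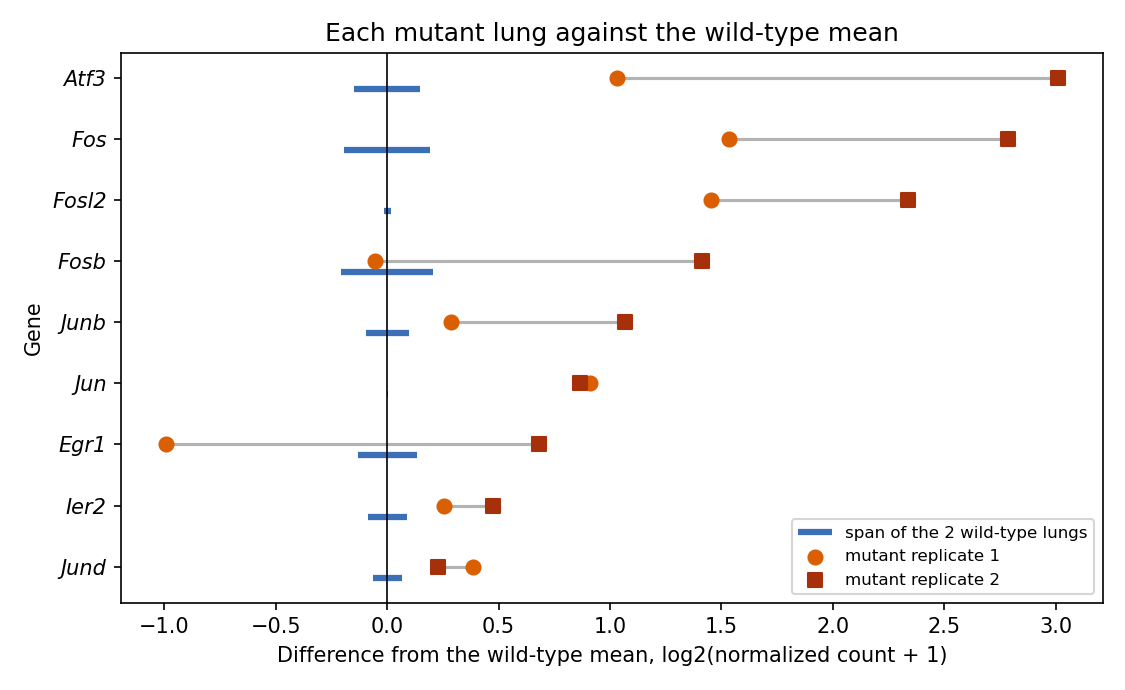
Difference of each mutant lung from the wild-type mean on the log2(normalized count + 1) scale for the 9 tested genes, ordered by mutant replicate 2, with circles for mutant replicate 1, squares for mutant replicate 2 and bars for the span of the 2 wild-type lungs. The mutant lungs coincide in Jun (0.91 and 0.86), are far apart in Atf3 (1.03 and 3.01) and lie on opposite sides of the wild type in Egr1 (-0.99 and 0.68).

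Egr1 (ENSMUSG00000038418, chromosome 18, positions 34859823 to 34864984) did not follow the genotype. Normalized counts of Egr1 were 224 and 717 in the mutant pair and 490 and 408 in the wild-type pair. Mutant replicate 1 was the lowest of the 4 lungs and mutant replicate 2 the highest, so the mutant lungs lay on opposite sides of the wild type, as they did in 21.2% of all genes tested. The log2 difference was -0.16 with a standard error of 0.51 (adjusted p = 0.895 in limma), and it was 0.68 without mutant replicate 1 and -0.99 without mutant replicate 2.

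Fosb, a FOS protein best known from neurons, was expressed at a low level. Fosb (ENSMUSG00000003545, chromosome 7, positions 19302696 to 19310051) had 29 and 82 in the mutant pair and 35 and 26 in the wild-type pair. Mutant replicate 1 was within the wild-type range and mutant replicate 2 was above it, with a log2 difference of 0.68 and a standard error of 0.51 (limma, adjusted p = 0.507). Without mutant replicate 2 the difference was -0.06.

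Egr3 (ENSMUSG00000033730, chromosome 14, positions 70077445 to 70080157) was at 5 and 6 in the mutant pair and at 6 and 10 in the wild-type pair. It lay below the filter of a mean of 10 and was not tested, since such values rest on few reads.

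Jund and Ier2 were the steadiest members. Jund, which most cells express without a stimulus, had 1259 and 1128 in the mutant pair and 1007 and 921 in the wild-type pair (chromosome 8, positions 70698949 to 70700616). Ier2 had 1004 and 1169 against 792 and 895 (chromosome 8, positions 84661331 to 84662852). In both genes the mutant lungs lay just above the wild-type lungs. The log2 differences were 0.31 and 0.36, with standard errors of 0.14 and 0.15, and neither passed (limma, adjusted p = 0.295 and 0.261). The value of Jund is uncertain, because exons of Gm11175 overlap it on the opposite strand. Read on either strand, 48.3% of its 50-base sequences match transcripts of other genes, a share that can include the Gm11175 overlap itself. For the other members that share was at most 5.83%.

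The mutant lungs also differed from each other in these genes. Mutant replicate 2 was the higher mutant lung in 7 of the 9 tested members and in 48.0% of all genes tested. It exceeded mutant replicate 1 by at least 1 on the log2 scale in 4 members, Egr1, Fos, Fosb and Atf3, and in 4.51% of all genes tested. In Fos, Fosb and Atf3, mutant replicate 2 was also at least 1 above both wild-type lungs, which held for 2.03% of all genes tested. With a single lung on each side this has no replicate check. The lungs also differed in other respects, whose part in the result was not tested. The 5 smooth muscle markers (Acta2, Myh11, Tagln, Cnn1 and Des) were all lower by at least 1 in mutant replicate 2 than in mutant replicate 1 and summed to 3776 there, against 9840 in mutant replicate 1 and 6698 to 7945 in the wild type. The neutrophil list, mainly S100a8 and S100a9, summed to 9225 in mutant replicate 2 and to between 5801 and 6387 in the other lungs, while Ngp of the same list was lowest in mutant replicate 2 (207, against 348, 256 and 295). The endothelial markers summed to 16836 in mutant replicate 2 and to between 22031 and 28716 in the other lungs. Pecam1, Cdh5, Kdr and Tek were each lowest in mutant replicate 2. Cldn5 of the same list was lowest in mutant replicate 1 (3466, against 4046 in mutant replicate 2 and 4123 and 4604 in the wild type). Sex, as read from Xist and Ddx3y, also separates the 2 mutant lungs, so it cannot be told apart from their other differences.

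Levels of different genes were compared per kilobase of the longest protein-coding transcript. In the wild-type lungs Jun was the highest, at 628 and 630 normalized counts per kilobase. Jund (604 and 552) and Ier2 (520 and 588) came next and overlapped each other. Junb (252 and 289), Fosl2 (196 and 200) and Fos (177 and 135) followed without overlap. Egr1 (109 and 91.0) and Atf3 (97.3 and 79.1) overlapped each other, and Fosb (9.25 and 6.88) and Egr3 (1.52 and 2.54) were the lowest. In mutant replicate 1 the order again began with Jun (1181), Jund (755) and Ier2 (660), but Fosl2 (542) and Fos (448) now stood above Junb (329). In mutant replicate 2, Fos (1065) and Fosl2 (1001) were just below Jun (1144), and Atf3 (710) was above Jund (676) and Junb (565). This order depends on the length used. Per kilobase of all annotated exons, a choice added after seeing the data, mutant replicate 2 had Fosl2 at 676 and Atf3 at 654, against 676 for Jund and 1144 for Jun. In mutant replicate 1 Fos (401) was then above Fosl2 (366), and in the wild type Fos (158 and 121) and Fosl2 (132 and 135) overlapped.

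Summed over Fos, Fosb, Fosl1 and Fosl2, the FOS family stood at 1024 and 2127 normalized counts per kilobase for the mutant pair and at 413 and 361 in the wild type. The JUN family stood at 2264 and 2385 against 1484 and 1470. The FOS sums were therefore more spread out between lungs than the JUN sums. Fosl2 and Fos together made up nearly all of the FOS sum, with Fosl2 at 53.0% and 47.1% in the mutant pair and 47.5% and 55.5% in the wild-type pair. Jun made up 52.1% and 48.0% of the JUN sum in the mutant pair and 42.3% and 42.8% in the wild-type pair, while the share of Jund was 33.3% and 28.3% against 40.7% and 37.6%.

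**Figure D3:**
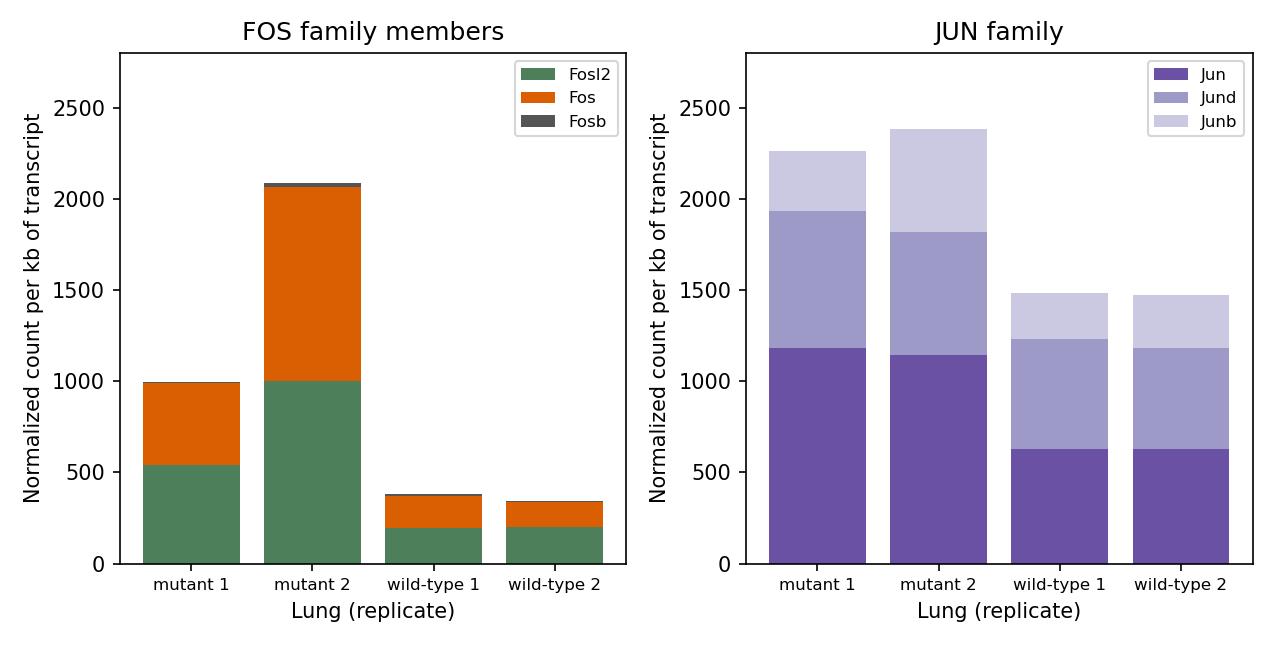
Stacked bars of normalized counts per kilobase of transcript in each lung, for Fosl2, Fos and Fosb on the left and for Jun, Jund and Junb on the right. Both panels share a scale from 0, and the FOS stack of mutant replicate 2 is the tallest of the FOS stacks while the JUN stacks of the mutant lungs are similar.

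Several members have compact genes. Jun, Jund and Ier2 have a single exon in the GENCODE annotation, and the longest protein-coding transcripts of the set run from 1522 bases in Ier2 to 6537 in Fosl2. Ier2 and Junb lie 312 kb apart on chromosome 8. AU-rich elements, built from copies of ATTTA in the 3' untranslated region, mark many short-lived RNAs. The longest annotated 3' untranslated region held a median of 2.5 copies of ATTTA in the 10 members, against 2 in 14505 protein-coding genes tested. The longer form TATTTAT was found there, on the transcript strand, in 6 of the 10 members and in 29.7% of those genes. Fosl2 had 3 such matches, Fos had 2, and Fosb, Jun, Jund and Atf3 had 1 each. TATTTAT was absent there in Junb, Egr1, Egr3 and Ier2, although Junb, Egr1 and Egr3 had 2, 2 and 7 copies of ATTTA. Nothing about decay was measured.

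Some other immediate early genes rose as well, from a list of 43 that does not overlap the set. Of the 41 tested, 9 rose, none fell and 32 did not pass, with a list median of 0.54. Over all genes tested, 1.47% passed as higher and 0.917% as lower. In limma 19 had an unadjusted p under 0.05, 16 higher and 3 lower (Plk2, Klf10 and Ier5), against 20.1% of all genes. Both mutant lungs were higher in 22 and lower in 6, against 25.7% and 26.9% of all genes tested. Taken lung by lung, the list median was 0.25 for mutant replicate 1 and 0.82 for mutant replicate 2. The counts that passed depended on which lungs were kept. In order of p, the first were Zfp36, which promotes decay of AU-rich RNAs, Errfi1, an inhibitor of EGF receptor signalling, Nfkbia, the inhibitor of NF-kappaB, Csrnp1, a nuclear factor induced by AXIN1, the clock gene Per1 and the kinase gene Sik1. Errfi1 was at 14463 and 19162 in the mutant pair and 4018 and 3854 in the wild-type pair, or 2.08 on the log2 scale (standard error 0.19, adjusted p = 0.0109 in limma). Zfp36 had 2252 and 2723 against 706 and 714 (log2 difference 1.80), and Nfkbia 3065 and 2859 against 1089 and 1099 (1.44). These genes were high in both mutant lungs, as Jun was. Csrnp1 (1.87), Per1 (1.94) and Sik1 (1.68) also had both mutant lungs above both wild-type lungs.

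A further group followed Atf3 and Fos in standing out in mutant replicate 2. These genes, chosen after their values were seen, were the 7 of the 41 that were at least 1 on the log2 scale above every other lung there (2.03% of all genes tested). They were the nuclear receptor genes Nr4a1, Nr4a2 and Nr4a3, the prostaglandin synthase gene Ptgs2, Plk3, Nfkbiz and Il6. Nr4a3 was at 29 and 593 in the mutant pair and 24 and 20 in the wild-type pair. Ptgs2 was at 52 and 914 against 106 and 67, and Nr4a1 at 327 and 2613 against 428 and 404. Mutant replicate 1 was below the wild-type range in Ptgs2 and Nr4a1 and slightly above it in Nr4a3, and none of the 7 passed the test between genotypes.

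**Figure D4:**
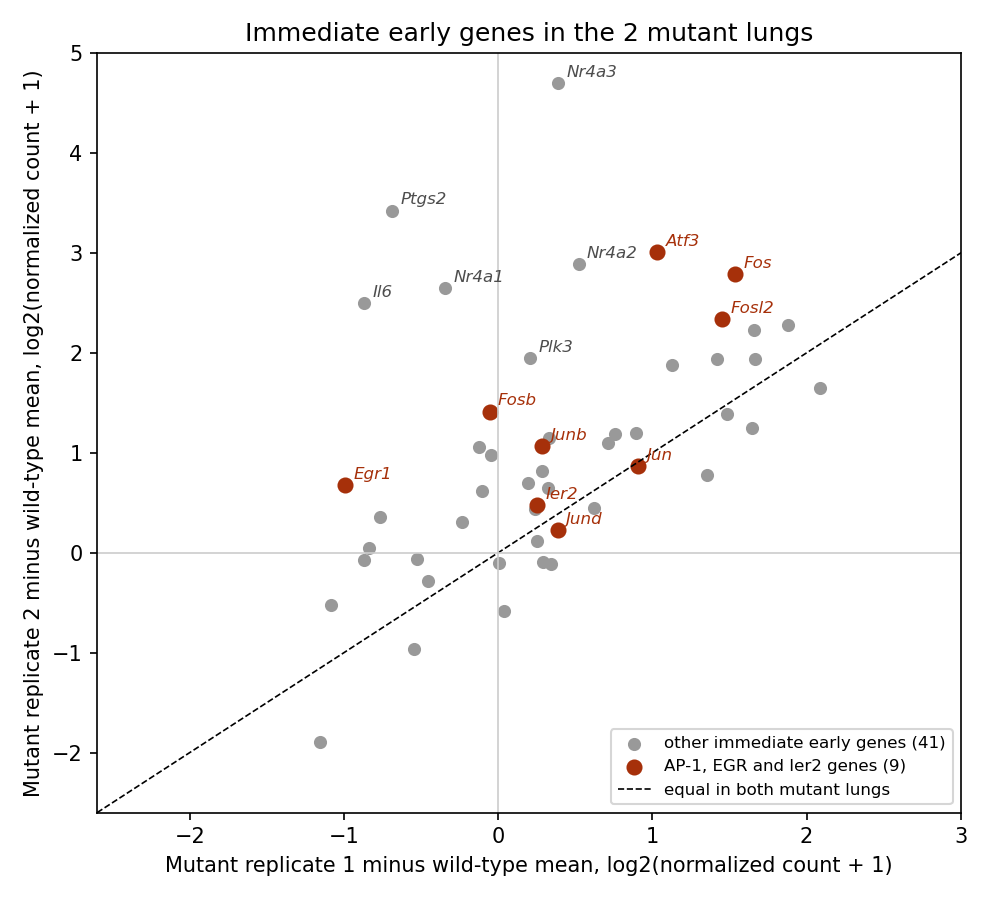
Difference of mutant replicate 1 (horizontal) and mutant replicate 2 (vertical) from the wild-type mean on the log2(normalized count + 1) scale, in dark points for the 9 tested AP-1, EGR and Ier2 genes and in grey for 41 other immediate early genes, with the dashed line where both lungs are equal. Jun and Jund lie near the line, and Atf3, Fos and Egr1 lie above it together with Nr4a1, Nr4a2, Nr4a3 and Ptgs2.

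Of 12 other AP-1 and leucine zipper genes, 0 passed in limma and 5 had an unadjusted p under 0.05 (Mafk, Maff, Jdp2 and Atf7 higher, Maf lower; 20.1% of all genes tested), while 5 passed as higher without mutant replicate 1. The small MAF genes Maff and Mafk, whose proteins lack an activation domain, were nearest to the threshold. Maff was at 949 and 2059 in the mutant pair and 525 and 432 in the wild-type pair (log2 difference 1.55, limma, adjusted p = 0.0933), and Mafk at 1006 and 1429 against 637 and 631 (0.92, adjusted p = 0.0793). Fosl1, the remaining FOS gene, was low and overlapped between genotypes, at 48 and 73 against 58 and 35.

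Among the EGR relatives, Egr2 was at 5 and 26 in the mutant pair and 40 and 46 in the wild-type pair, with a log2 difference of -1.79 and a standard error of 0.70 (limma, adjusted p = 0.233). As in Egr1, mutant replicate 1 was the lowest lung. The NAB genes encode corepressors of EGR proteins, and Nab1 had a log2 difference of 0.33 (adjusted p = 0.238). Egr4 was listed at 0 in every lung, 0 of the 3 tested genes passed, and 2 had an unadjusted p under 0.05, against 20.1% of all genes.

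Genes for the upstream machinery showed no called change. Of the 12 genes for SRF, its TCF partners and CREB factors 0 passed, with Crtc2 (0.44, limma, adjusted p = 0.205) and Elk4 (0.36, adjusted p = 0.214) having the smallest p. Of the 20 MAP kinase cascade genes 0 passed, and Braf (0.38) came first, with adjusted p = 0.199. The list medians were 0.18 and 0.03, and 2 genes in each list had an unadjusted p under 0.05, a share below the 20.1% of all genes tested. Without mutant replicate 1, 1 gene of the first list passed in each direction and 2 of the second as lower. These kinases and factors act mainly through phosphorylation, which RNA does not show.

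Textbook targets of the factors changed in both directions or did not pass. Of 13 tested AP-1 targets 0 passed in limma, and 4 had an unadjusted p under 0.05, 1 higher and 3 lower (20.1% of all genes). The list median was -0.46. Taken lung by lung, it was -0.07 for mutant replicate 1 and -0.62 for mutant replicate 2. The macrophage elastase gene Mmp12 was at 7 and 6 against 37 and 26 (log2 difference -2.10, limma, adjusted p = 0.0594), and Spp1, which encodes osteopontin, was at 148 and 181 against 753 and 232 (-1.35, adjusted p = 0.227). The 5 macrophage markers were all lower in both mutant lungs, with sums of 2279 and 2106 against 3235 and 2815, and their part in these values was not tested. Of 11 EGR targets, 2 rose and 2 fell, with a median of -0.10. Over all genes tested, 1.47% passed as higher and 0.917% as lower. An unadjusted p under 0.05 in limma was found for 4 of the 11, against 20.1% of all genes. Sphk1, a sphingosine kinase, rose from 587 and 672 to 1519 and 1574 (1.30) and F3, the tissue factor that starts coagulation, from 1385 and 1108 to 3627 and 5463 (1.84). Pdgfa, a growth factor for alveolar myofibroblasts, fell from 1484 and 1478 to 859 and 788 (-0.85), and Tnfsf10, the death ligand TRAIL, from 1287 and 1435 to 615 and 366 (-1.52).

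Heat shock genes, which encode chaperones induced by protein damage, did not pass, with 0 of 8 called in limma, 2 at an unadjusted p under 0.05 (20.1% of all genes) and a list median of 0.03. Without mutant replicate 1, 2 passed as higher. Hspb1 was at 1620 and 1166 against 670 and 684 (log2 difference 1.02, limma, adjusted p = 0.0586). Hsph1 was at 577 and 1075 against 482 and 464 (0.73, adjusted p = 0.237), with mutant replicate 2 the highest as in Fos. The inducible pair Hspa1a and Hspa1b overlapped between genotypes, at 133 and 90 against 126 and 90 for Hspa1a and at 184 and 84 against 184 and 130 for Hspa1b.

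The genes whose profile over the 4 lungs lay nearest to the median profile of the tested members were St3gal1, a sialyltransferase gene, Srsf11, a splicing factor gene, Chkb, a choline kinase gene, Tiparp and Secisbp2l. The measure was the Euclidean distance of log2(value + 1) from the wild-type mean, which ranged from 0.0544 to 0.0977. St3gal1 had 1364 and 2087 in the mutant pair and 1053 and 990 in the wild-type pair. Tiparp, an ADP-ribosyltransferase gene that is itself on the immediate early list, had 1716 and 3019 against 1424 and 1311. With 4 lungs, many genes can share such a profile by their order alone.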

How the data were processed

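RNA from the left lung lobe of 2 RykSL/SL and 2 wild-type mice was sequenced after stranded poly(A) library preparation from 3 micrograms of RNA, per the labels' protocols. Per the submitters' processing notes, STAR 2.4.0a, featureCounts 1.5.1 and DESeq2 1.14.1 were used, with mm10 and GRCm38. The authors deposited whole-number values, treated here as a score; their name marks them as normalized counts, and how they were scaled the sources used here do not give. Raw counts were not recovered, so no count model was run. Values under about 10 rest on few reads, and rounding adds error there.

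Groups came from sample titles. Genes with a mean of at least 10 were tested with limma 3.58.1 (R 4.3.3; tables read by data.table, version 1.17.8), two-sided on log2(value + 1) values with a trended prior variance, Benjamini-Hochberg adjustment and a threshold of 0.05. Log2 differences are mutant minus wild type and understate changes of low genes. The fit was tested on simulated data. Of a symbol on several identifiers (Map2k7), the one with the higher mean was used. Transcript lengths, 3' regions and shared 50-base sequences came from GENCODE release M21. Other steps used Python 3.11.15, pandas 2.3.3, numpy 2.4.6 and matplotlib 3.10.9.

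The members, gene lists and tests were chosen with earlier results of these data known. Named were the 10 members, Ryk, up to 6 called genes of each list by p (or the 2 with the smallest p where fewer than 2 were called), and the 5 genes nearest to the members' median profile, with a mean of at least 50. Other genes were named as context, after their values were seen. Alternatives covered the pseudocount, filter, scaling, trend, replicate block and each lung left out.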

Additional observations from a re-analysis of the deposited data

How the results depend on the processing

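The count of members called was again 2 with pseudocounts of 0.5 and 5, a mean of at least 50, quantile normalization and equal library totals. With no filter on low values, 0 members, 0 other immediate early genes, 0 EGR targets in either direction and 0 genes in all passed in limma (4876 of all genes at an unadjusted p under 0.05). Without the trend, 0 members, 0 other immediate early genes and 0 EGR targets in either direction passed, and 46 genes were higher and 26 lower over all genes, against 271 and 169 in the reported fit. At an unadjusted p under 0.05 there were 3 members with no filter and 4 without the trend. No source used here states that the replicate numbers in the titles pair the lungs. Deviations of same-numbered lungs had a correlation of -0.058 over genes. That value rests on a single difference within each genotype, so it cannot decide whether the lungs were paired. With the number as a replicate block, 437 genes were higher and 329 lower, 4 members were higher (Fos, Fosl2, Jun and Atf3), and 2 other AP-1 partners higher, 1 AP-1 target lower and 1 heat shock gene higher passed.

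Leaving out each lung in turn gave 0 to 1199 genes higher and 0 to 1186 lower, and 0 to 5 members (at an unadjusted p under 0.05, 917 to 7756 genes and 3 to 8 members). The high ends were all without mutant replicate 1, and the remaining lung of a genotype is assumed to vary like the other pair. Other immediate early genes ranged from 0 to 24 higher and 0 to 1 lower, AP-1 partners from 0 to 5 higher, SRF, TCF and CREB factors from 0 to 1 in each direction, MAP kinase genes from 0 to 2 lower, AP-1 targets from 0 to 1 in each direction, heat shock genes from 0 to 2 higher, and EGR targets from 0 to 2 higher and 0 to 3 lower. Signs changed for Fosb (-0.056 without mutant replicate 2 to 1.41 without mutant replicate 1), Egr1 (0.68 without mutant replicate 1 to -0.99 without mutant replicate 2) and Ryk (-0.20 without mutant replicate 1 to 0.13 without mutant replicate 2). Per kilobase of all exons in place of the longest transcript, a choice added after seeing the data, the mean share of Fos in the FOS sum was 49.8% in place of 43.5%, and that of Fosl2 44.0% in place of 50.8%.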
